A study of Mus musculus with 12 samples.

Results

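The genes described here are 51 genes of ribosome biogenesis, chosen by name: factors of the nucleolus that make, modify and process ribosomal RNA (rRNA), subunits of RNA polymerase I, and Myc. All 51 were among the 23420 genes of the deposited count table, and 41 of them had enough counts to be tested. They were measured by RNA sequencing of monocytic myeloid-derived suppressor cells (M-MDSCs), immature monocyte-like cells that can become osteoclasts. A flow cytometer had sorted them from bone marrow by their surface proteins (CD11b+Ly6G-Ly6Chi). The aged group held 6 male C57BL/6JNIA mice of 24 months and the young group 6 male C57BL/6JNIA mice of 6 months, with 1 library per mouse. The labels name the tibia as the source and no transgene or treatment for any mouse.

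Ribosomes are assembled in the nucleolus. RNA polymerase I transcribes a long precursor that is cut into most of the rRNAs. Small nucleolar RNAs (snoRNAs) with their proteins guide the modification of its nucleotides. Assembly factors fold and trim the small and the large subunit before export to the cytoplasm. Myc is a transcription factor known to raise ribosome biogenesis genes and the output of RNA polymerase I in growing cells, and myeloid progenitors are known to lower ribosome production as they mature.

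Library totals were 8737941 to 16300374 fragments in aged and 4613239 to 9079237 in young mice, and the biological coefficient of variation between mice was 15.7%. Levels are CPM, the counts of a gene scaled to the normalized total of its library, and a count of 3 stood for 0.188 to 0.349 CPM in aged and 0.305 to 0.642 CPM in young mice. The sorted markers Itgam and Ly6c2 were present in every library, while Ly6g was not analysed here. Of 10 classical monocyte genes tested, Cd14 and Ly6c2 were called higher in aged mice and Itgam lower, at an edgeR adjusted p under 0.05. Their summed level was 13400 to 18480 CPM in aged and 15580 to 20720 CPM in young mice. Some genes of this list were low. Ccr2 was at 5.03 to 62.003 CPM in aged and 23.9 to 54.7 CPM in young mice. Cx3cr1 was at 0.428 to 15.4 and 6.86 to 15.99 CPM, and F13a1 at 2.57 to 44.04 and 17.6 to 39.2 CPM. The share of monocytic cells in the libraries was not tested. Ly6c2 was at 605 to 799 CPM in aged and 367 to 595 CPM in young mice, without overlap (log2 fold change 0.54, edgeR adjusted p = 0.00265), and Itgam had a log2 fold change of -0.22 (edgeR adjusted p = 0.0285). Neutrophil granule genes were abundant in libraries labelled as monocytic cells: Ngp alone took 3.3% to 4.35% of the counts in aged and 2.73% to 3.54% in young mice. Over all genes tested, 22.4% were called higher and 23.0% lower. Of 8 neutrophil genes tested, 4 were called higher in aged mice (50%), with a summed level of 87720 to 105500 CPM against 67810 to 93350 CPM. Of 7 granulocyte-monocyte progenitor genes tested, 4 were called higher (57.1%), Prtn3, Elane, Mpo and Ms4a3, with a summed level of 464 to 547 CPM against 434 to 530 CPM. Of 5 dendritic cell genes tested, H2-Ab1 and Cd74 were higher (40%) and Clec9a was lower (20%), with a summed level of 54.6 to 847 CPM against 60.6 to 87.6 CPM. Among the resident macrophage markers, 7 of 7 tested genes were called higher in aged mice (100%), with a summed level of 55.3 to 1003 CPM against 45.7 to 62.6 CPM in young mice and the highest value in aged mouse 1. Of the 19 proliferation markers tested, 3 were called lower (15.8%, against 23.0% of all genes tested), namely Mki67, Top2a and Bub1, and the summed level was 657 to 1333 CPM in aged and 1054 to 1769 CPM in young mice. The part of these markers in the results on ribosome biogenesis genes was not tested. In bulk RNA, fewer cells of a type and less RNA per cell cannot be told apart. All young libraries have lower file numbers than all aged libraries, so a batch that followed those numbers cannot be told apart from age.

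Few ribosome biogenesis genes were called between the ages. Of the 41 genes tested with edgeR's quasi-likelihood test, 7 were called at an adjusted p under 0.05, against 45.4% of all 9742 genes tested. The RNA polymerase subunit gene Polr1c and the large subunit factor Nip7 rose in aged mice, against 22.4% of all genes called higher. The rDNA-binding factor Ubtf, nucleolin (Ncl), and the assembly factors Heatr1, Noc2l and Rrp1b fell, against 23.0% of all genes called lower. The balance of 2 higher and 5 lower depended on the setting. It was 6 and 4 with upper quartile scaling (46.3% of all genes called) and 5 and 5 with a correction for GC content (45.9%). The log2 fold changes of the 41 genes, aged minus young, ran from -0.75 to 0.52 with a median of -0.04, and that of all genes tested was 0.01. They were positive for 20 and negative for 21 genes, and their median size without the sign was 0.245, against 0.288 for all genes. At an unadjusted p under 0.05, 6 genes were higher and 5 lower, against 53.1% of all genes tested in either direction.

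Most of these genes had low counts, which limits what the test can detect. The median of the mean levels was 4.62 CPM, against 23.3 CPM for all genes tested, and the median standard error of the log2 fold change was 0.173 against 0.122. The comparison was therefore repeated among genes with a mean under 20 CPM, a limit chosen after seeing the data. There, 5 of 38 ribosome biogenesis genes were called (13.2%), against 31.4% of the 4555 genes tested at such levels. They were 2 higher and 3 lower, against 16.6% and 14.8%. Leaving out aged mouse 1 gave 2 genes higher and 8 lower (42.9% of all genes were called in that fit), since Dkc1, Nop56, Ftsj3 and Nop14 were then called lower and Noc2l was not, and Mrto4 was called higher in place of Polr1c.

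**Figure D1:**
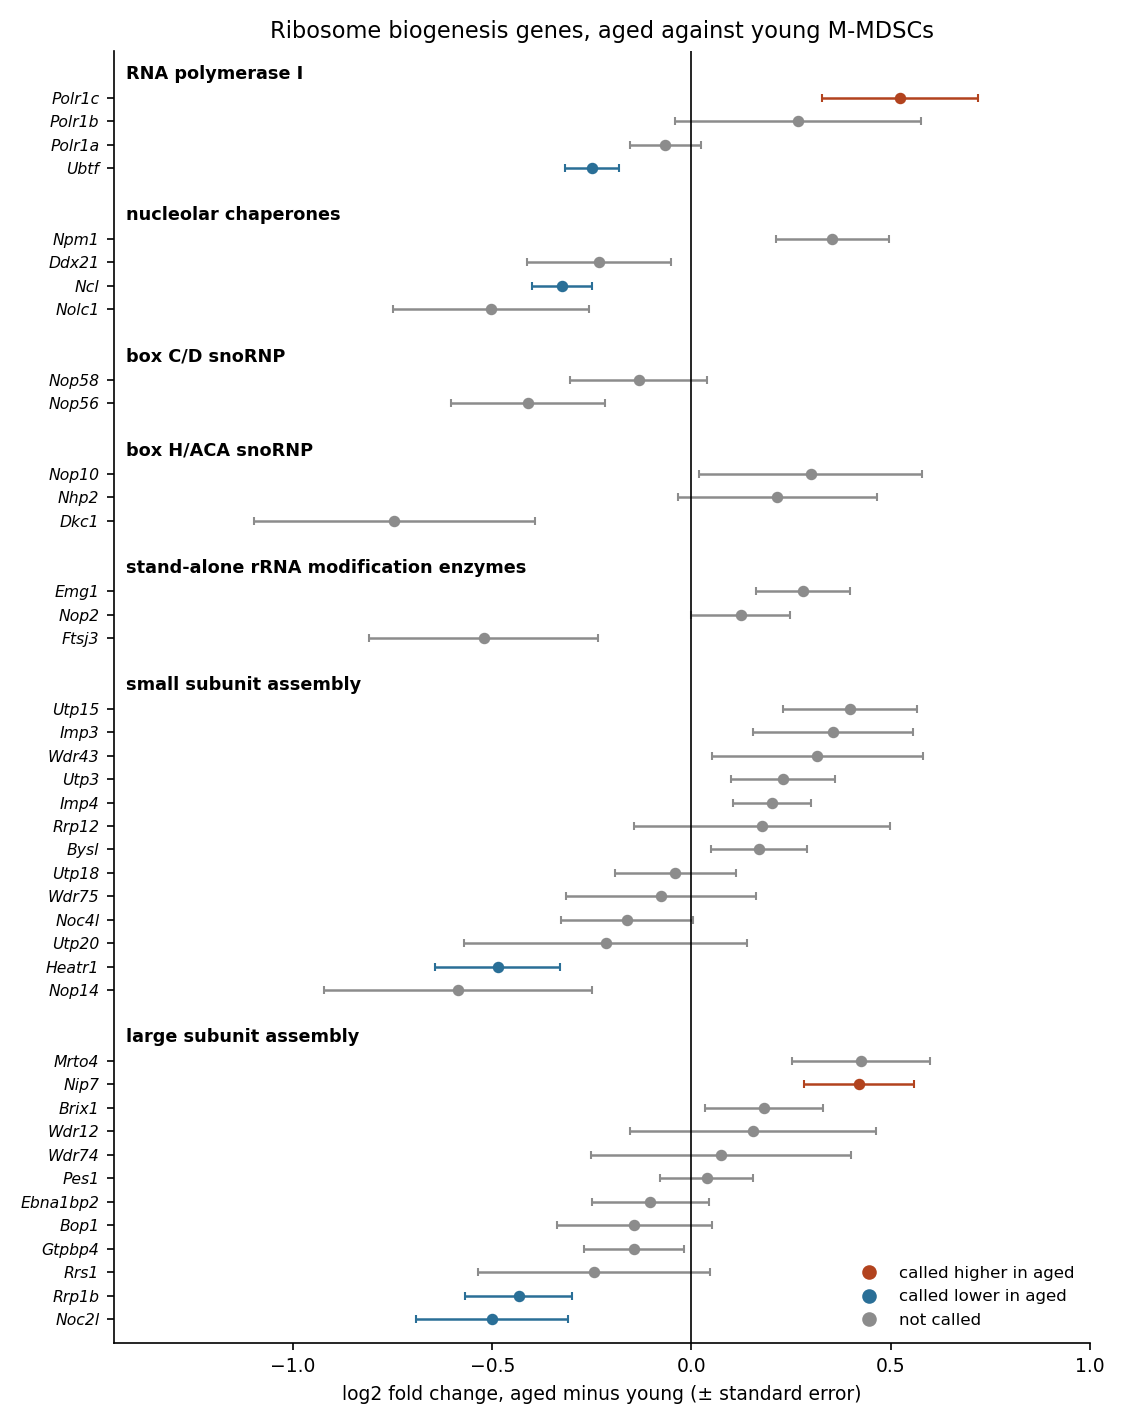
Log2 fold change of the 41 tested ribosome biogenesis genes, aged minus young (x axis), with the standard error as bars, grouped by role and coloured by whether the gene was called. The values lie on both sides of 0 in each group drawn except the box C/D snoRNP proteins, with 2 genes called higher and 5 called lower.

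Myc was close to the limit of detection. It had 3 to 12 counts in aged and 0 to 5 counts in young mice, with levels of 0.277 to 1.34 CPM (median 0.519) and 0 to 0.509 CPM (median 0.152). All 6 aged mice lay above the median of the young mice and the ranges overlapped, with 2 young mice at 0 counts. Myc did not reach the filter on low counts. Without the filter, its log2 fold change was 1.31 with an edgeR adjusted p of 0.132 (28.2% of all genes were called in that fit), and DESeq2 gave 1.39 with an adjusted p of 0.117 (37.9% called). Aged mouse 1, which had the highest macrophage markers, also had the highest Myc. Of 12 tested partners and relatives in the Myc network, 1 was called higher (8.33%, against 22.4% of all genes) and 3 lower (25%, against 23.0%), namely Mlx (log2 fold change 0.29, edgeR adjusted p = 0.0103), and Mycbp2, Mga and Mlxip. Mycbp2, a large ubiquitin ligase first found as a Myc-binding protein, had the largest fall (log2 fold change -1.25, standard error 0.122, edgeR adjusted p = 7.11e-06). Its counted length was 15233 bases, and longer genes tended to lower fold changes in aged mice. Its value with an offset for gene length is not given here.

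In the RNA polymerase I group, Polr1c and Ubtf changed in opposite directions. Polr1c (chr17:46243920-46248045 of mm10, 9 exons), which encodes a small subunit shared with RNA polymerase III, was at 3.64, 5.32 and 7.47 CPM (lowest, median and highest) in aged and at 2.93, 4.0 and 4.51 CPM in young mice. All but 2 aged mice lay above every young mouse. Its log2 fold change was 0.52 (standard error 0.197, edgeR adjusted p = 0.0407), and the call was lost in 7 of 12 fits that left out a mouse, where the value stayed between 0.42 and 0.62. The call was also lost with limma-voom (adjusted p = 0.0686), and in edgeR without TMM factors (0.0812), without a filter (0.0593), with the length offset (0.283), in thinned counts (0.0716) and with the aged mice before (0.144) or after (0.053) a gap in the file numbers.

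Ubtf (chr11:102304560-102319096, 22 exons) encodes UBF, the factor that binds ribosomal DNA and opens it for RNA polymerase I. It was at 57.3, 60.02 and 71.7 CPM in aged and 69.9, 72.2 and 79.0 CPM in young mice. Aged mouse 5 alone reached the range of the young mice. The log2 fold change was -0.25 (standard error 0.0672, edgeR adjusted p = 0.00743) and was called whichever mouse was left out. It was not called with an offset for gene length (edgeR adjusted p = 0.444) or with only the aged mice after the gap (0.121).

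The catalytic subunit genes were not called. Polr1a was at 130, 147 and 198 CPM in aged and 144, 161 and 173 CPM in young mice, with a log2 fold change of -0.07 (standard error 0.0891, edgeR adjusted p = 0.571). Polr1b was at 1.07, 1.63 and 3.26 CPM in aged and 0.977, 1.82 and 2.06 CPM in young mice. The young range lay inside the aged range for Polr1a, and the ranges overlapped for Polr1b (log2 fold change 0.27, standard error 0.310).

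Among the abundant nucleolar proteins, nucleolin fell and nucleophosmin did not pass the test. Ncl (chr1:86344719-86359455, minus strand, 14 exons) encodes a protein that binds the rRNA precursor and chromatin of the rRNA genes. It was at 32.3, 35.2 and 40.8 CPM in aged and 41.8, 44.8 and 48.7 CPM in young mice. Every aged mouse lay below every young mouse. Ncl was the only 1 of the 41 tested genes without overlap between the ages, against 21.8% of all genes tested. The log2 fold change was -0.33 (standard error 0.0758, edgeR adjusted p = 0.00318). In a fit with an offset for gene length, the value was 0.10 (edgeR adjusted p = 0.208), and the cause was not tested. The counted length of Ncl was 8257 bases, 56.0% of its span, against a median of 2702 bases for the 41 tested genes.

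Npm1, the nucleolar chaperone nucleophosmin, was at 9.62, 11.8 and 16.1 CPM in aged and 8.28, 9.96 and 10.9 CPM in young mice. Of the aged mice, 5 of 6 lay above the young median, and the ranges overlapped. Its log2 fold change of 0.35 narrowly missed the threshold (standard error 0.141, edgeR adjusted p = 0.0518). Of 14 alternative settings and 12 fits that left out a mouse, 8 called it higher and the others did not. Nolc1, a chaperone of snoRNA particles, had a log2 fold change of -0.50 (standard error 0.246, edgeR adjusted p = 0.107). Ddx21, a helicase that links RNA polymerase I with rRNA processing, had -0.23 (standard error 0.180, edgeR adjusted p = 0.308). Gnl3, the GTPase nucleostemin, had 7 to 20 counts in aged and 3 to 13 in young mice and was not tested.

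None of the 5 tested proteins of the snoRNA particles was called or had an unadjusted p under 0.05 with edgeR, against 45.4% and 53.1% of all genes tested. Limma-voom called Dkc1 lower and DESeq2 called none. Box C/D particles methylate rRNA, and fibrillarin (Fbl), their methyltransferase, had only 6 to 16 counts in aged and 1 to 10 in young mice and was not tested, nor was Rrp9. Nop56, a scaffold of these particles, was at 2.27, 3.24 and 4.35 CPM in aged and 3.55, 4.32 and 5.36 CPM in young mice. Of the aged mice, 5 of 6 lay below the young median (log2 fold change -0.41, standard error 0.194, edgeR adjusted p = 0.0962), and it was called lower in 3 alternative fits, with the length offset, in thinned counts and without aged mouse 1. Nop58, the other scaffold, had a log2 fold change of -0.13 (standard error 0.173).

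Box H/ACA particles convert uridine to pseudouridine, and Dkc1 encodes their enzyme, dyskerin, which is also part of telomerase. Dkc1 (chrX:75095854-75109776, 15 exons) had the lowest log2 fold change of the 41 genes, -0.75, with a standard error of 0.353 and an edgeR adjusted p of 0.0963. It was at 0.379, 1.38 and 2.90 CPM in aged and 1.78, 2.56 and 3.15 CPM in young mice. Counts in aged mice ran from 4 to 32, and 2 of 6 aged mice lay within the young range. Without aged mouse 1, the highest of the aged mice, Dkc1 was called lower with a log2 fold change of -1.02. The partners Nhp2 and Nop10 had log2 fold changes of 0.22 (standard error 0.250) and 0.30 (standard error 0.280), and Gar1, with at most 6 counts in any mouse, was not tested.

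None of the enzymes that modify rRNA without a guide passed the threshold. Emg1, which methylates a pseudouridine of the small subunit rRNA, was at 12.7, 16 and 17.6 CPM in aged and 9.77, 13.2 and 14.5 CPM in young mice. Of the aged mice, 5 of 6 lay above the young median (log2 fold change 0.28, standard error 0.119, edgeR adjusted p = 0.0656). Nop2, a methyltransferase of the large subunit rRNA, had a log2 fold change of 0.12 (standard error 0.125). Ftsj3, also a methyltransferase, had -0.52 (standard error 0.287, edgeR adjusted p = 0.149), and Dimt1, with at most 8 counts in any mouse, was not tested. For the 3 tested enzymes together, edgeR called 0 genes and gave an unadjusted p under 0.05 for Emg1 alone, against 45.4% and 53.1% of all genes tested, and DESeq2 also called none of them. Emg1 was called higher in 7 alternative fits (edgeR adjusted p down to 0.0248) and not in the others. Those with upper quartile scaling and the GC correction were among the 7. Ftsj3 was called lower without aged mouse 1.

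Of the 13 tested small subunit assembly genes, Heatr1 alone was called (7.69%, against 45.4% of all genes tested). Heatr1 (chr13:12395375-12438893, 45 exons) encodes a scaffold of the early small subunit precursor that is also needed for transcription by RNA polymerase I. It was at 6.25, 10.8 and 12.5 CPM in aged and 12.2, 14.3 and 15.4 CPM in young mice. Aged mouse 1 was the only aged mouse above the lowest young mouse. Heatr1 fell by 0.49 on the log2 scale (standard error 0.157, edgeR adjusted p = 0.0200). The call was lost with the length offset (edgeR adjusted p = 0.405) and with only the aged mice before the gap (0.0735).

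The other small subunit genes spread on both sides of 0. Utp15, a member of the same early complex, was at 6.19, 7.70 and 9.59 CPM in aged and 4.49, 5.65 and 8.36 CPM in young mice. All 6 aged mice lay above the young median, with 2 young mice inside the aged range (log2 fold change 0.40, standard error 0.168, edgeR adjusted p = 0.0642). For Utp15, 7 alternative fits gave a call higher and the others did not. Imp3 and Imp4, which help pair the guide snoRNA with the precursor, had log2 fold changes of 0.36 (edgeR adjusted p = 0.159) and 0.20 (edgeR adjusted p = 0.105). Wdr43, Utp3, Rrp12 and Bysl had values of 0.32, 0.23, 0.18 and 0.17, while Utp18, Wdr75, Noc4l, Utp20 and Nop14 had -0.04, -0.08, -0.16, -0.22 and -0.59. Tsr1, a factor of late small subunit maturation, had 0 to 21 counts in aged and 1 to 6 in young mice and was not tested.

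Among the 12 tested large subunit assembly genes, Nip7 rose and Noc2l and Rrp1b fell (25% called, against 45.4% of all genes tested). Nip7 (chr8:107056877-107060928, 4 exons) encodes a factor of precursor processing. It was at 6.58, 7.28 and 7.93 CPM in aged and 4.12, 5.34 and 6.94 CPM in young mice. A single young mouse, young mouse 9, lay above the lowest aged mouse. Nip7 rose by 0.42 on the log2 scale (standard error 0.137, edgeR adjusted p = 0.0212). Left-out mice changed this call in 2 of 12 fits, those without young mouse 5 and without young mouse 6. It was also lost with the block (log2 fold change 0.56, edgeR adjusted p = 0.0513) and kept in the same mice without the block (0.56, edgeR adjusted p = 0.0179). With the aged mice before or after the gap it was lost at values of 0.40 (edgeR adjusted p = 0.11) and 0.45 (0.065).

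Rrp1b (chr17:32036162-32062862, 16 exons), a nucleolar partner of precursor processing, was at 4.53, 6.36 and 7.23 CPM in aged and 7.07, 8.15 and 10.2 CPM in young mice. Aged mouse 2 was the only aged mouse above the lowest young mouse. Its fall of -0.43 on the log2 scale (standard error 0.134, edgeR adjusted p = 0.0162) was called whichever mouse was left out. It was not called, with adjusted p-values from edgeR, after the length offset (0.168), in thinned counts (0.0699), with the replicate block (0.111) or with the aged mice before the file number gap (0.101), where it stayed negative. Noc2l (chr4:156236010-156247616, 19 exons), which accompanies the precursor out of the nucleolus, was at 2.03, 2.98 and 3.95 CPM in aged and 3.32, 4.22 and 5.86 CPM in young mice. The ranges shared 2 aged and 2 young mice. Noc2l fell by 0.50 on the log2 scale (standard error 0.191, edgeR adjusted p = 0.0433), with a call kept in only 4 of 12 fits that left out a mouse, where the log2 fold change was -0.60 to -0.39. The call was also lost with DESeq2 (adjusted p = 0.0582), and in edgeR with upper quartile scaling (0.0609), without a filter (0.0681), with the block (0.129), in the same 8 mice without the block (0.0536) and with the aged mice before (0.0887) or after the gap (0.157).

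The remaining large subunit genes were not called. Mrto4, a placeholder for a ribosomal stalk protein, was at 4.68, 6.10 and 7.91 CPM in aged and 3.58, 4.62 and 6.01 CPM in young mice. All 6 aged mice lay above the young median (log2 fold change 0.43, standard error 0.173, edgeR adjusted p = 0.0558). For Mrto4, 5 alternative fits gave a call higher and the others did not. The partners Pes1, Bop1 and Wdr12, which act as 1 complex, had log2 fold changes of 0.04, -0.14 and 0.15 with standard errors of 0.117, 0.194 and 0.310. Brix1, Wdr74, Ebna1bp2, Gtpbp4 and Rrs1 had 0.18, 0.07, -0.10, -0.14 and -0.25. Noc3l, Nop16 and Ppan had at most 14, 7 and 13 counts in any mouse and were not tested. For the 10 untested genes, neither edgeR without a filter nor DESeq2 called any or gave an unadjusted p under 0.05.

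**Figure D2:**
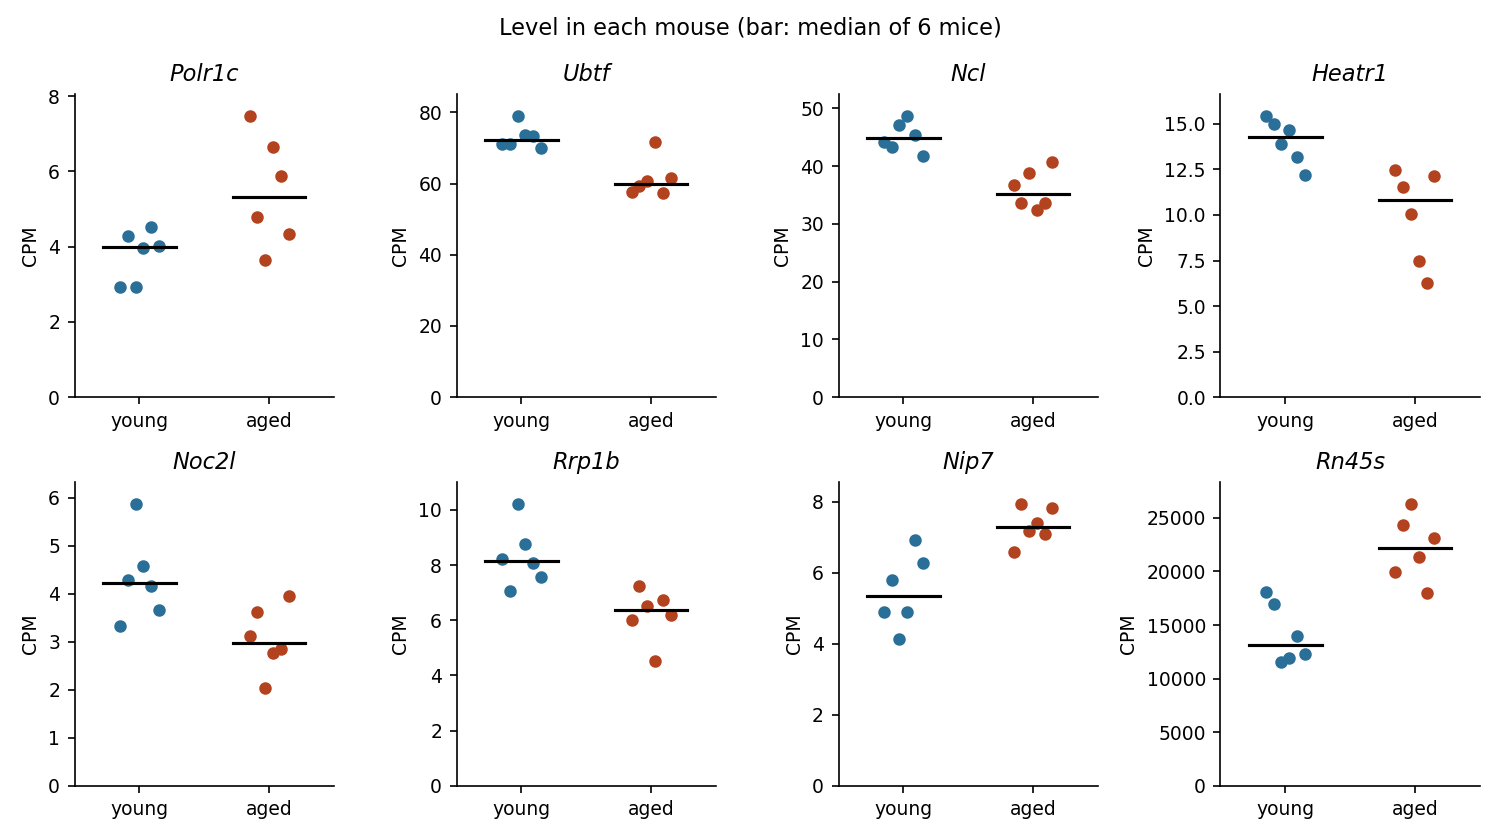
Level of the 7 called ribosome biogenesis genes in CPM, and of Rn45s (y axis from 0), in each of 6 young and 6 aged mice, with the median as a bar. The aged and young points of Ncl do not overlap, and those of the other 7 panels do.

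Several calls changed in a fit with an offset for gene length. Across all genes tested, longer genes tended to lower fold changes in aged mice (Spearman's rho -0.483 across genes, which are not independent replicates). In that fit, 2 of the 41 genes were called higher, Nip7 and Utp15, and 2 lower, Noc2l and Nop56, against 34.8% of all genes called. Polr1c, Ubtf, Ncl, Heatr1 and Rrp1b were then not called, and their values were 0.26, -0.07, 0.10, -0.16 and -0.23. With only the 3 aged mice numbered before a gap in the file numbers, 3 genes were higher and 2 lower (34.4% of all genes called), and with the 3 numbered after it, 0 and 4 (30.3%). In that last edgeR fit 2 genes were higher at an unadjusted p under 0.05.

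Per kilobase of counted exons, the levels ran over a wide range within single complexes. Polr1a was highest, with a median of 25.3 CPM per kb over the 12 mice, followed by Ubtf at 14.7 and Emg1 at 13.2. Polr1b, the other catalytic subunit of the same polymerase, was at 0.434 CPM per kb, 58.4 times below Polr1a, and Polr1c was at 3.30. The levels of Polr1a and Polr1b were apart in every mouse of either age. By the GENCODE annotation, no other protein-coding gene overlapped Polr1a on either strand. Npm1 and Ncl had medians of 5.96 and 5.0 CPM per kb over all mice. In aged mice Npm1 lay above Ncl without overlap, at 5.602 to 9.36 against 3.92 to 4.94 CPM per kb, and in young mice the ranges overlapped, at 4.82 to 6.34 against 5.06 to 5.90. This order rests on the counted lengths, 1718 bases for Npm1 and 8257 for Ncl. In CPM not divided by length, Ncl lay above Npm1 in both ages. The values were 32.3 to 40.8 against 9.62 to 16.1 CPM in aged and 41.8 to 48.7 against 8.28 to 10.9 CPM in young mice. Of the 41 tested genes, 38 lay below the median level per length of all genes tested. Among the snoRNA particle proteins, Nhp2 and Nop10 stood at 3.11 and 3.08 CPM per kb, and the enzymes Dkc1 and Fbl at 0.706 and 0.867. Myc was at 0.188 and Noc3l lowest at 0.113 CPM per kb.

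**Figure D3:**
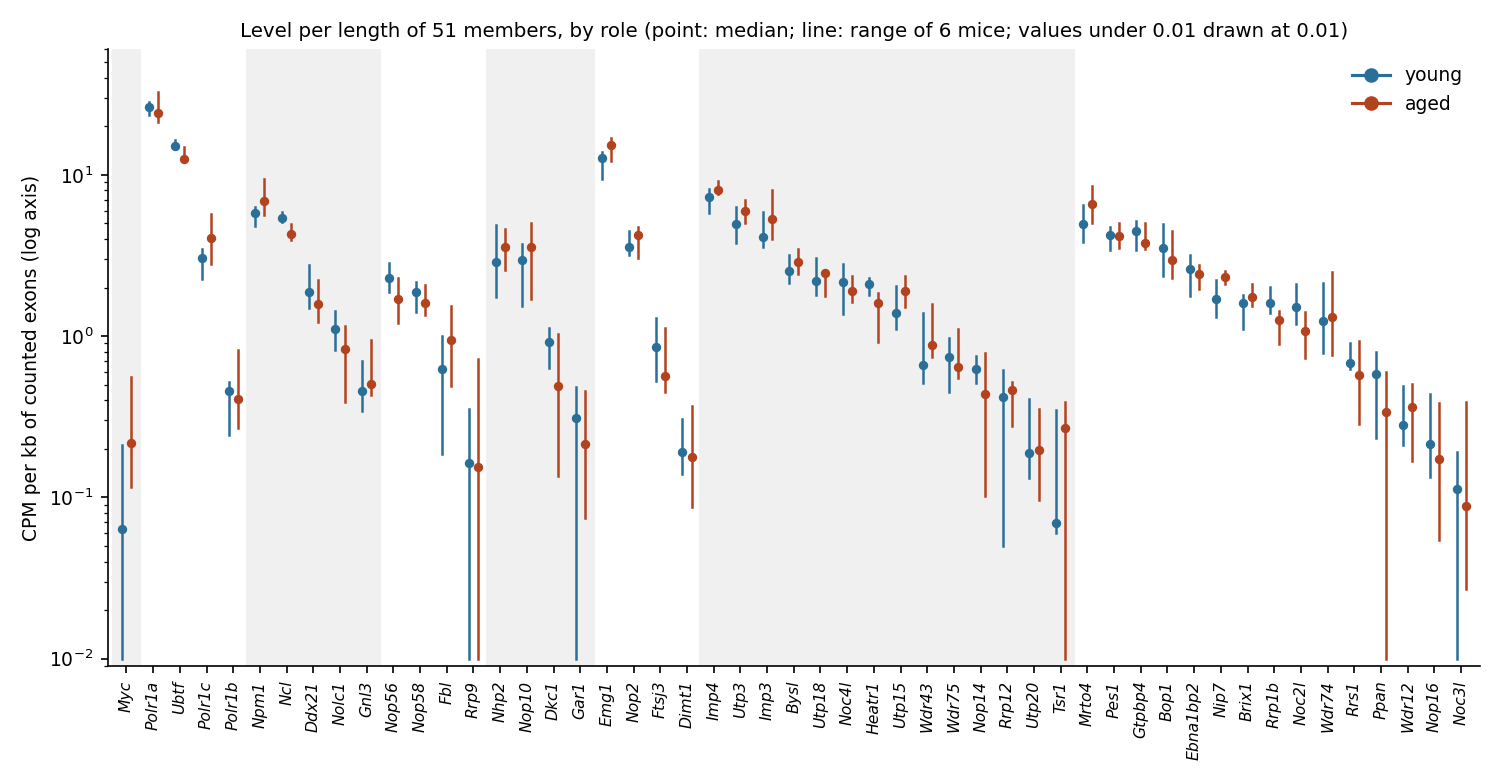
Level of each of the 51 genes in CPM per kb of counted exons (log axis), as the median and range of 6 young and 6 aged mice, ordered by role. Polr1a, Ubtf and Emg1 lie above 10 CPM per kb, and the ranges of the ages overlap for most genes.

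Some mice were high or low for many of these genes. The mean deviation of the 41 genes from their mean over the 12 mice, in log2 CPM, ran from -0.22 in aged mouse 5 to 0.30 in aged mouse 1, and from -0.15 to 0.14 in the young mice. Aged mouse 1 had the highest level of the 12 mice for 17 of the 51 genes, its mean deviation over all genes tested was 0.06, and its macrophage markers summed to 1003 CPM, against 315 CPM in the next aged mouse. Young mouse 5 was highest for 10 genes. The sum of the 51 genes was 442 to 516 CPM in aged and 481 to 534 CPM in young mice, with overlap, and Polr1a made up the largest share of it.

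**Figure D4:**
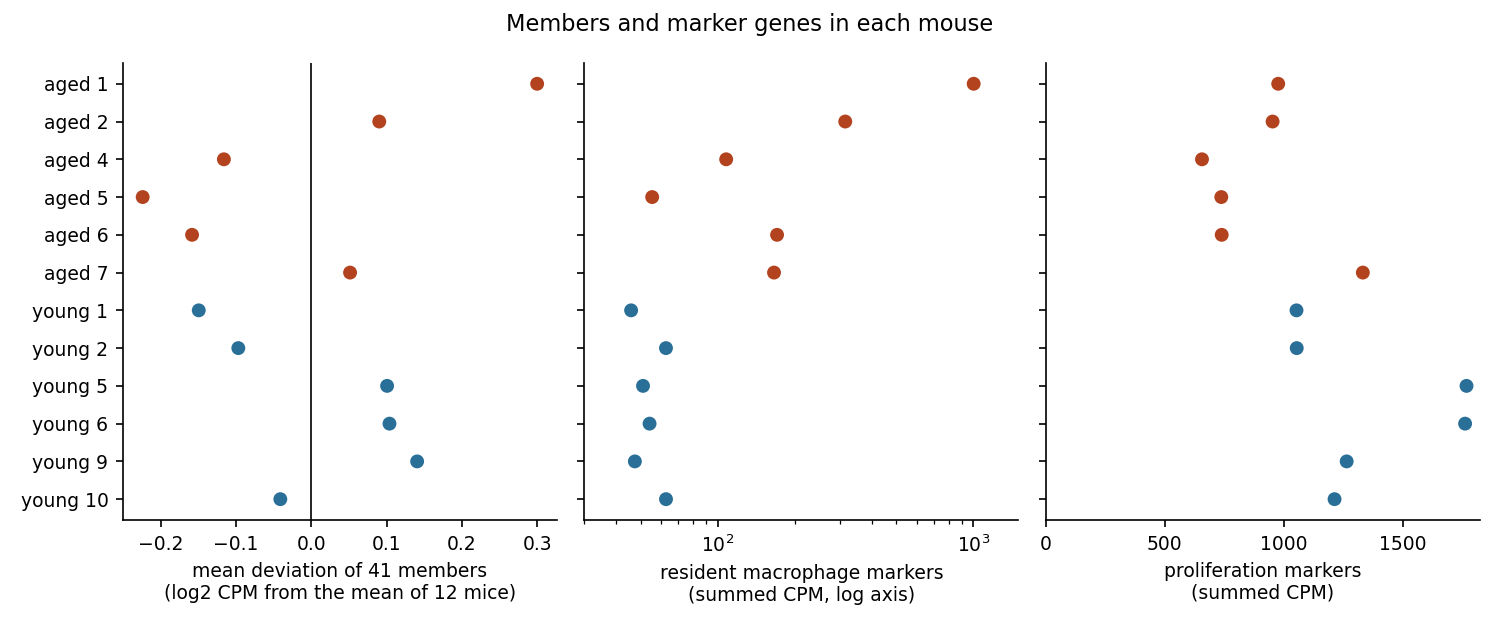
Mean deviation of the 41 tested genes from their mean over 12 mice (log2 CPM), summed CPM of resident macrophage markers (log axis) and summed CPM of proliferation markers (x axes) for each mouse (y axis). Aged mouse 1 is highest in the first and the second panel, at 0.30 and 1003 CPM, and young mice 5 and 6 are highest in the third.

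The product of RNA polymerase I was also present in the table, as Rn45s, an entry for the rRNA precursor (chr17:39842997-39848829, 5833 bases). It is no member of the 51 genes and was looked up after its values were seen. Rn45s was at 18032, 22218 and 26251 CPM in aged and 11503, 13115 and 18105 CPM in young mice. Young mouse 1 was the only young mouse above the lowest aged mouse. Rn45s rose by 0.65 on the log2 scale (standard error 0.135, edgeR adjusted p = 0.00152). With the replicate block its value was 0.52 and was not called (edgeR adjusted p = 0.0519). This entry took 1.72% to 2.53% of the counts in aged and 1.2% to 1.83% in young mice. Precursor and mature rRNA left in the library cannot be told apart at this entry, and how rRNA was removed is not given in the sources used here.

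A wider list of 117 other ribosome assembly genes had 19 genes called higher and 9 lower of 102 tested, or 18.6% and 8.82%, against 22.4% and 23.0% of all genes tested, with a median log2 fold change of 0.09. Without TMM factors the counts were 10 and 11, and with the offset for gene length 13 and 13. Of 11 other RNA polymerase I genes tested, 1 was higher and 1 lower (9.09% each). Polr1d, which pairs with Polr1c, was higher (log2 fold change 0.34, edgeR adjusted p = 0.0158) and Ttf1, which ends transcription of the rRNA genes, was lower (-0.71, edgeR adjusted p = 0.00144). Of 36 other small subunit genes, 6 were higher and 3 lower (16.7% and 8.33%), led by Pno1 (0.82, edgeR adjusted p = 0.0369) and Aatf (-0.78, edgeR adjusted p = 0.00568). Pno1 had few counts, 11 to 34 in aged and 3 to 12 in young mice (standard error 0.302). Of 38 other large subunit genes, 8 were higher and 5 lower (21.1% and 13.2%). Nsa2 rose most (0.67, edgeR adjusted p = 9.36e-04), and Mdn1, the large ATPase that strips factors from the precursor, fell most (-0.91, edgeR adjusted p = 1.95e-04). Mdn1 has a counted length of 17959 bases, and its value with the offset for gene length is not given here. Of 17 genes of the exosome and RNase MRP, which trim the precursor, 4 were higher (23.5%), with C1d first (0.83, edgeR adjusted p = 2.43e-04).

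The cytosolic ribosomal protein genes, whose products these factors assemble, were nearly all higher. Of 80 tested, 76 were called higher (95.0%, against 22.4% of all genes) and 1 lower, with a median log2 fold change of 0.88. With the offset for gene length, 62 were higher and 2 lower, with a median of 0.39. The same medians of the 41 ribosome biogenesis genes were -0.04 and -0.06. The difference between the lists was not tested, and counts of ribosomal protein genes are uncertain where near-identical copies remove fragments.

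**Figure D5:**
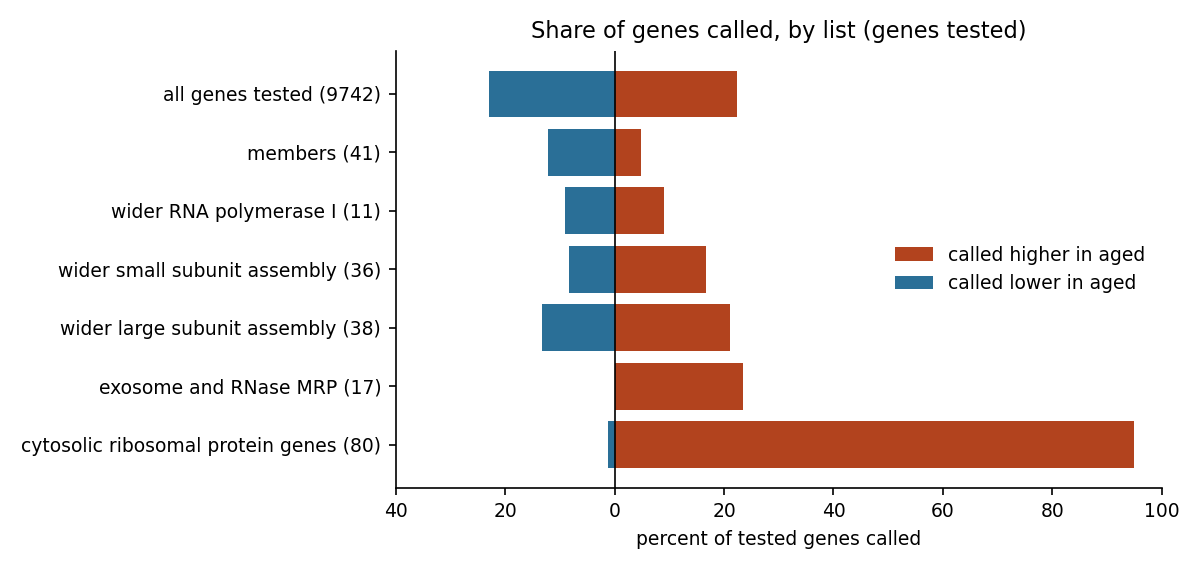
Percent of tested genes called higher (right) and lower (left) in aged mice for all genes, the 41 ribosome biogenesis genes, 4 parts of the wider list and ribosomal protein genes, with the number tested in parentheses. The bars are 4.88% and 12.2% for the 41 genes and 95.0% and 1.25% for ribosomal protein genes.

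Several of these genes carry snoRNA genes in their introns. By the GENCODE annotation of the same build, 8 of the 51 genes (Ncl, Gnl3, Nop56, Nop58, Dkc1, Wdr43, Tsr1 and Ppan) contain a snoRNA gene on their own strand, or 15.7%, against 1.24% of all genes of the table. Among tested genes the shares were 12.2% and 1.93%. Ncl holds Snora75, Snord82 and Gm24148, and Nop56 holds 5 snoRNA genes, Snord57 and Snord110 among them. None of these snoRNA genes lay in the counted exons of the 51 genes, so the counts given here do not include them.

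Promoters were searched because Myc and its partner Max bind the letters CACGTG, the E-box. RefSeq promoters of GRCm38.p6, from 250 bases before to 50 bases after the start, were matched for 45 of the 51 genes and not for Myc, Npm1, Fbl, Bop1, Rrs1 and Rrp12. The letters CACGTG, which read the same on both strands, occurred in 7 of 45 genes (15.6%), against 12% of tested genes and 8.09% of all genes of the promoter table. The looser CANNTG, which includes CACGTG, occurred in 55.6%, against 66.2% and 75.0%. These windows with 15 bases on each side, or up to the promoter's end, are shown with CACGTG in capitals, since the count rests on them:
Imp4, chr1:34439693-34439728, plus strand: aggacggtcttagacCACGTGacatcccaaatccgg
Nop2, chr6:125131808-125131843, plus strand: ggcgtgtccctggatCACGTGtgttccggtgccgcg
Pes1, chr11:3963962-3963997, plus strand: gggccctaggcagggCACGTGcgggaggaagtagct
Tsr1, chr11:74898089-74898124, plus strand: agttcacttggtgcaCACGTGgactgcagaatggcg
Utp18, chr11:93885766-93885801, minus strand: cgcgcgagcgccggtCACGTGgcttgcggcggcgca
Utp20, chr10:88826765-88826792, minus strand: cagcggcactaactaCACGTGaggaaaa
Wdr43, chr17:71616217-71616252, plus strand: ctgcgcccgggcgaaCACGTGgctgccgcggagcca

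Of the 7 genes with these letters, 6 were tested and none was called, against 45.4% of all genes tested. Their log2 fold changes were 0.20 for Imp4, 0.12 for Nop2, 0.04 for Pes1, -0.04 for Utp18, -0.22 for Utp20 and 0.32 for Wdr43. Of the 7 called genes, 0 hold CACGTG in this window and 4 hold CANNTG. The promoters of Ncl, the gene without overlap between the ages, and of Nip7, the called gene that rose with the smaller p-value, are shown whole and without capitals, since neither holds CANNTG. They consist of G and C to 69.3% and 60.7%.
Ncl, chr1:86359406-86359705, minus strand: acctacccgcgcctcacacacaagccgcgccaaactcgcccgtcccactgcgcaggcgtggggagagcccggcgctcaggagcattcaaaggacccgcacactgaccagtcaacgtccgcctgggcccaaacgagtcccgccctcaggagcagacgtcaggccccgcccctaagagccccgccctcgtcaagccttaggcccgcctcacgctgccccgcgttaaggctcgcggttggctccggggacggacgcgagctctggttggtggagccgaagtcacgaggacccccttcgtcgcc
Nip7, chr8:107056627-107056926, plus strand: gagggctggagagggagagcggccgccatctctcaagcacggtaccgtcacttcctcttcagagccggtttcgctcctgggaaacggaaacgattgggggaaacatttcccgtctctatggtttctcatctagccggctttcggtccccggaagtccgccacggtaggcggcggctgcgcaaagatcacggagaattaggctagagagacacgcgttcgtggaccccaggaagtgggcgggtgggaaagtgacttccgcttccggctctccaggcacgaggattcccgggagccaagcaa
A match is a description of the letters and not of binding.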

How the data were processed

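Total RNA of sorted bone marrow M-MDSCs was sequenced in pairs of reads from stranded libraries of 12 mice. The authors deposited raw counts of fragments per gene over exons of mm10, made with featureCounts 2.0.0 at a minimum mapping quality of 60, and the exon length per gene. The aligner is not given in the sources used here. A mapping quality filter lowers counts of genes with near-identical copies. Samples were grouped by the age in the labels, and no column was left unused.

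Counts were tested with edgeR 4.0.16 in R 4.3.3 (filterByExpr, TMM factors, quasi-likelihood test, Benjamini-Hochberg adjustment over all 9742 genes tested, threshold 0.05). CPM were scaled to the TMM-normalized library total, and log2 CPM used a prior count of 2. Standard errors were derived from the F statistic. Mice of the same age differed by more than sampling noise (smallest chi-square per gene 1.72). The members and lists were chosen with earlier results of these data known. In each role, the genes that rose most, fell most or had the lowest p-value were named, with all genes not called or not tested and, from other lists, the most changed called gene in each direction. Mlxip, Mga, Top2a, Bub1, Elane, Mpo, Ms4a3, Cd74 and Rn45s were named after their values were seen.

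Alternatives were DESeq2 1.42.0, limma-voom (limma 3.58.1), library totals without TMM factors, DESeq2 size factors in edgeR, upper quartile scaling, at least 10 counts in every mouse, no filter, offsets from a lowess fit (span 0.3) for gene length or GC content (94.4% of tested genes had a GC value), thinning to 4613239 fragments, leaving out each mouse, a replicate block and each part of the aged mice by file number. Promoters and summaries were handled in Python 3 with pandas. Counting error limits the genes of few counts most. Protein sequences were not used here.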

Additional observations from a re-analysis of the deposited data

Results flagged for a closer look

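In 8 of 106 sets of 6 mice of an age, for the 51 ribosome biogenesis genes, their mean deviation and Rn45s, a single mouse lay far from the other 5, by the gap to its neighbour relative to the whole range. All 8 were in aged mice. Chance marks about 1 in 20 such sets, so about 5 would be marked by chance alone. Aged mouse 1 was high for Myc, at 1.338 CPM against 0.277 to 0.583 CPM in the other aged mice, for Rrp9, at 1.115 CPM against 0 to 0.379, for Ftsj3, at 3.233 CPM against 1.29 to 1.86, and for Wdr43, at 5.463 CPM against 2.57 to 3.22. The same mouse had the highest sum of macrophage markers, 1003 CPM, and the part of those cells in these values was not tested. Aged mouse 4 was high for Polr1a, at 198.2 CPM against 130 to 153. Aged mouse 5 was high for Ubtf, at 71.71 CPM against 57.3 to 61.6, and low for Rrp12, at 1.201 CPM against 1.98 to 2.25. Aged mouse 2 was low for Utp18, at 4.662 CPM against 6.25 to 6.64.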

How the results depend on the processing

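The number of ribosome biogenesis genes called higher, 2 of 41, was 1 with limma-voom, with library totals without TMM factors, without a filter and with the replicate block, 4 with at least 10 counts in every mouse (28 genes tested) and with thinned counts (31 tested), 5 with the GC correction, 6 with upper quartile scaling and 0 with only the aged mice after the gap. Leaving out a mouse gave 0 to 4, with 4 without aged mouse 4 or 5, 1 without young mouse 1, 6 or 10 and 0 without young mouse 5 (edgeR, 5 higher at an unadjusted p under 0.05). Of all genes tested, 44.7% were called with limma-voom, 45.6% without TMM factors, 28.2% without a filter, 35.1% with the block, 49.3% with at least 10 counts, 43.9% with thinned counts, 45.9% with the GC correction, 46.3% with upper quartile scaling (2501 higher), 34.8% with the length correction, 34.4% and 30.3% with the aged mice before and after the gap and 38.8% to 48.1% with a mouse left out. The number called lower, 5, was 2 with the length correction and with only the aged mice before the gap, 3 with the block, and 4 to 8 with a mouse left out. Ncl turned to 0.10 with the length correction. For the wider list, 19 higher became 10 without TMM factors and with the block, and 8 after the gap, with 14 to 20 on leaving out a mouse, and 9 lower became 5 before the gap, with 7 to 11. With a mouse left out, the median log2 fold change of the tested ribosome biogenesis genes stayed between -0.06 and 0.04. The number of all genes called stayed between 3804 and 4717 in those fits. The median of the ribosome biogenesis genes was -0.13 without TMM factors, and 0.08 and -0.09 with the aged mice before and after the gap. Of all genes, 2185 were higher and 2240 lower, and without TMM factors 1682 and 2762, with the median of all genes at -0.08. CANNTG in place of CACGTG changed the promoter share from 15.6% to 55.6%. For single genes under all alternatives together, 959 values kept their direction or size and their side of the threshold, 42 lost a call, 37 gained one in the same direction, 4 moved by more than the spread and 1, that of Ncl, reversed. The causes were not tested.

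The replicate block used the label numbers 1, 2, 5 and 6, which both ages share. They are not stated to pair mice, and the deviations of mice with the same number had correlations of -0.25 to -0.07. Without the block, the same 8 mice gave 3 genes higher and 4 lower (44.7% of all genes called). The call of Rn45s was lost with the block (edgeR adjusted p = 0.0519). Depth limits the genes of fewest counts, above all the 10 untested ones. The GC correction gave no value for Rn45s, which had no GC value.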
